A study of Rattus norvegicus with 8 samples.

Results

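Levels of 9 genes of prostaglandin synthesis, reception and breakdown were compared in kidneys of rats kept with or without dietary silicon (Si). The genes were taken by name, and the probe sets were those whose platform annotation gives 1 of these symbols and no other: 14 probe sets of the 31042 tested, or 9 of 14217 named genes. All of them were kept, with 2 probe sets for each of 5 genes (Ptgs1, Ptges, Ptger1, Ptger3 and Hpgd) and 1 for each of the other 4 (Ptgs2, Ptgds, Ptger4 and Pla2g4a). Female Sprague-Dawley rats received a low-Si feed for 26 weeks and were 29 weeks old at harvest. Si deplete rats drank low-Si water and had a daily intake of 0.17 mg Si per kg, whereas Si replete rats drank water with orthosilicic acid and had one of 4.1 mg per kg. The study searched these kidneys for transporters that respond to dietary Si. Each array held RNA from 1 rat, extracted from the ground left kidney, with 4 arrays per group. In such whole-kidney RNA, fewer cells of a type and less RNA per cell cannot be told apart.

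Prostaglandins are short-lived lipid signals made from arachidonic acid. Cytosolic phospholipase A2 (Pla2g4a) frees the fatty acid from membranes, the cyclooxygenases (Ptgs1 and Ptgs2, also called COX-1 and COX-2) turn it into an unstable intermediate, and terminal synthases such as Ptges and Ptgds make prostaglandin E2 and D2 from that. Prostaglandin E2 acts on G protein-coupled receptors, here Ptger1, Ptger3 and Ptger4 (EP1, EP3 and EP4), and the dehydrogenase encoded by Hpgd starts its breakdown. In the kidney, COX-1 is known from the collecting duct and COX-2 from the macula densa and medullary interstitial cells, and prostaglandin E2 acts on renin release, blood flow and the handling of salt and water. The EP3 receptor is known from the thick ascending limb and collecting duct, where it opposes the action of vasopressin.

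The levels are log2 values of probe sets after gcRMA, a method that corrects background by GC content and normalizes across arrays, so a difference of 1 is a doubling on this scale. Where a gene had a pair of probe sets, they are called the brighter and the dimmer one by their mean signal, and their levels are not set against each other. Differences are Si deplete minus Si replete. They were tested by limma with Benjamini-Hochberg adjustment over all probe sets and a threshold of 0.1 for the adjusted p. Kidney markers were bright on every array, with Umod at 13.24 to 13.58, Lrp2 at 12.49 to 12.99 and Aqp2 at 10.64 to 11.45. Si deplete replicate 1 stood apart along the first principal component (42.1% of the variance), at 64.0 against -25.9 to 19.2 for the other arrays. The diets did not overlap on this component, with Si deplete arrays at -1.94 to 64.0 and Si replete arrays at -25.9 to -18.8. Values without Si deplete replicate 1 are given below for those of the 9 genes whose difference then moved by about 0.1 or more. For the other genes named they are not given.

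Breakdown and the EP3 receptor showed the largest differences among the 9 genes. Levels of Hpgd were 1.47-fold and 1.6-fold higher in Si deplete kidneys on its probe sets, and those of Ptger3 were 1.5-fold and 1.78-fold higher. Neither gene passed the threshold. Ptgs2 and Ptgds varied so much between rats of the same diet that their differences of 0.20 and -0.01 carried wide intervals, and the other enzymes differed by less than 0.5. Of the 14 probe sets, none passed in either direction (limma, adjusted p-values of 0.152 to 0.995), where 0.151% of all 31042 did. At an unadjusted p under 0.05, 5 of the 14 were higher and none was lower, where 14.9% of all probe sets were past that level in either direction. These 5 belong to only 3 genes, Hpgd, Ptger3 and Ptges, so they are not separate readings. The median difference of the 14 was 0.193, against -0.01 over all probe sets tested. Above 0 were 11 and below it 3, where 47.4% of all probe sets were above 0. In all 5 genes with a pair, both probe sets had the same sign, so this count and the median also hold doubled genes.

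**Figure D1:**
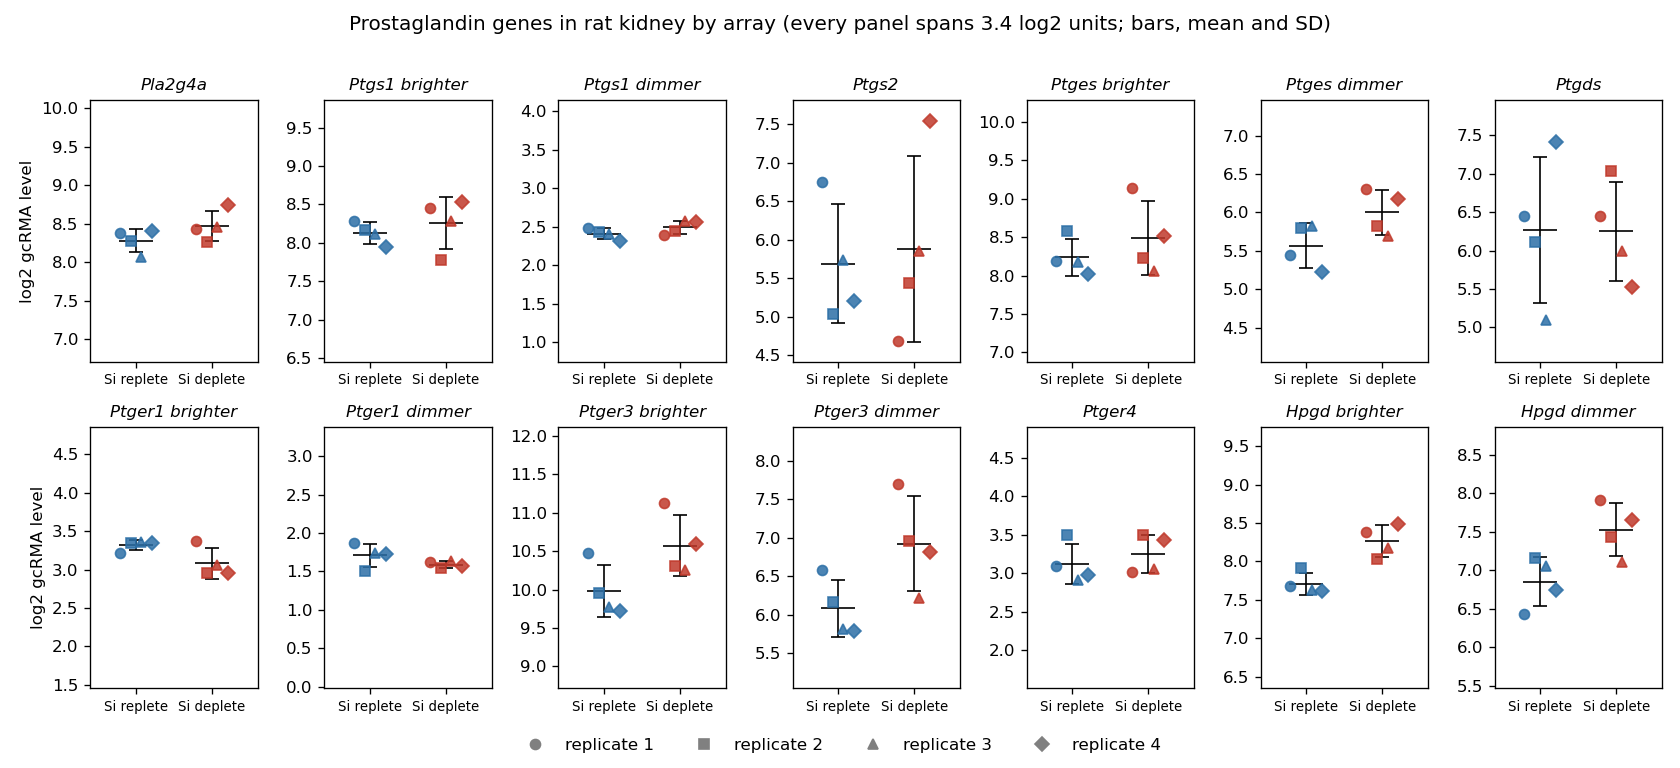
Log2 gcRMA levels of the 14 probe sets in each kidney, with Si replete arrays in blue and Si deplete arrays in red; symbols mark the replicate, and black bars show the group mean with its SD (n = 4). The groups separate only for the brighter Hpgd probe set, at 8.03 to 8.49 against 7.62 to 7.92, whereas the levels of Ptgs2 and Ptgds spread widely within both diets.

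The promoters of Hpgd and Ptger3, the genes with the largest differences, and that of Ptgs2, the inducible cyclooxygenase that varied most between rats, are shown for orientation. Each is the 250 bases before the annotated start of the gene, 5′ to 3′ on the strand of the gene, from RefSeq assembly GRCr8. They are chr16:39034832-39035081 on the minus strand for Hpgd, chr2:249264832-249265081 on the plus strand for Ptger3 and chr13:64713813-64714062 on the plus strand for Ptgs2. Capitals mark GC boxes (GGGCGG on either strand) and the half-site of the cyclic AMP response element (TGACG on either strand), and no marked match overlapped another.
Hpgd: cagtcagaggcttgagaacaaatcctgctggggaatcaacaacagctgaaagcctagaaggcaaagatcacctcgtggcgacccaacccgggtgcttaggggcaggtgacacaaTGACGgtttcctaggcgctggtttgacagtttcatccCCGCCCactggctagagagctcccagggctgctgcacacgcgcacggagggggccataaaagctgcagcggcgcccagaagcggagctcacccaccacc
Ptger3: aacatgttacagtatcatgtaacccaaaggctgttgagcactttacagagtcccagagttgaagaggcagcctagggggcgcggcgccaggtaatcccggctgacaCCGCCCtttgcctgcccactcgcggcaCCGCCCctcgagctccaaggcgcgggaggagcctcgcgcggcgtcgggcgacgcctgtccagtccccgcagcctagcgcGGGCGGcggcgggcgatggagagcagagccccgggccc
Ptgs2: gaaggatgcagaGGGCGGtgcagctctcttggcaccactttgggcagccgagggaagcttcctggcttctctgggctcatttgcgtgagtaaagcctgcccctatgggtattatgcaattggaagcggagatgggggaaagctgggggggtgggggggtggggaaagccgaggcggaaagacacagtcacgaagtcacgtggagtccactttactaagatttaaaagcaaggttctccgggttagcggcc

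Both Hpgd and Ptger3 hold a GC box in this window, with 1 and 3 matches, and Ptgs2 holds 1 match at 238 bases before the start. A GC box was found in the same window of 6 of the 9 genes and in 32.4% of 27457 RefSeq promoters. The TGACG half-site was found in Hpgd alone of the 9, at 136 bases before the start, and in 19% of all promoters. TATAAA was found on the opposite strand of Pla2g4a alone (13.1% of all promoters). An AP-1 site (TGANTCA) was found in none of the 9 (6.36% of all promoters). These are matches of letters only, and binding of a factor was not measured.

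Hpgd encodes the NAD-dependent dehydrogenase that inactivates prostaglandin E2 and related prostaglandins. On the brighter probe set its level read 8.38, 8.03, 8.17 and 8.49 on the 4 Si deplete arrays (replicates 1 to 4) against 7.68, 7.92, 7.63 and 7.62 on the 4 Si replete arrays. Every Si deplete kidney thus lay above every Si replete kidney. The Si deplete mean was 8.27 ± 0.21 (SD, n = 4) and the Si replete mean 7.71 ± 0.14 (SD, n = 4). This difference of 0.56 (standard error 0.12, 95% interval 0.29 to 0.83) exceeds the spread within either group. With an adjusted p of 0.152 from limma it missed the threshold, and it ranked 228 among all probe sets by p. The exact permutation test gave a 2-sided p of 0.0286, the smallest that 4 against 4 arrays allow, before any adjustment over the 14 probe sets. Of all probe sets, 4.67% separated the diets with Si deplete higher and 4.7% with Si deplete lower, so that 1 higher and 0 lower of 14 is close to the background.

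The dimmer Hpgd probe set gave the same direction. Its level read 7.91, 7.43, 7.11 and 7.66 on the 4 Si deplete arrays (replicates 1 to 4) against 6.43, 7.16, 7.05 and 6.75 on the 4 Si replete arrays. Here the groups overlapped, since Si deplete replicate 3 lay just under Si replete replicate 2. The log2 fold change was 0.68 (standard error 0.20, 95% interval 0.23 to 1.13; limma, adjusted p = 0.211). Both probe sets kept a positive difference with any single array left out, at 0.48 to 0.64 on the brighter one and 0.54 to 0.82 on the dimmer one (0.52 and 0.55 without Si deplete replicate 1). The smallest adjusted p over all settings tried was 0.109 on the brighter probe set, by Storey's q-value, and the largest was 0.33.

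Ptger3 encodes the EP3 receptor, which couples mainly to the inhibitory G protein and lowers cyclic AMP. On its brighter probe set the level read 11.12, 10.30, 10.26 and 10.59 on the 4 Si deplete arrays (replicates 1 to 4) against 10.47, 9.96, 9.77 and 9.72 on the 4 Si replete arrays. Si deplete replicate 1 was the highest and Si replete replicate 1 overlapped the Si deplete group, while the other 3 Si replete kidneys lay below all Si deplete kidneys. The log2 fold change was 0.59 (standard error 0.22, 95% interval 0.09 to 1.09; limma, adjusted p = 0.28). On the dimmer probe set the level read 7.70, 6.96, 6.21 and 6.81 on the 4 Si deplete arrays (replicates 1 to 4) against 6.58, 6.16, 5.81 and 5.79 on the 4 Si replete arrays. The log2 fold change there was 0.83 (standard error 0.30, 95% interval 0.16 to 1.51; limma, adjusted p = 0.26), with Si deplete replicate 3 inside the range of the Si replete group. Without Si deplete replicate 1, the differences were 0.40 and 0.57 (adjusted p-values of 0.435 and 0.39). The pair of probe sets followed each other closely over the 8 arrays (r = 0.95), as did those of Hpgd (r = 0.85), and these values include the difference between diets.

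The other E2 receptors were dim. Ptger1, the EP1 receptor, which signals through calcium, lay on its brighter probe set at 2.95 to 3.37 with the Si deplete diet and at 3.22 to 3.36 with the Si replete diet. In Si deplete kidneys 3 of the 4 arrays lay below all Si replete arrays, while Si deplete replicate 1 was the highest of all. The log2 fold change was -0.23 (standard error 0.11, 95% interval -0.47 to 0.01; limma, adjusted p = 0.344), and on the dimmer probe set it was -0.12 (standard error 0.09, adjusted p = 0.573). Without Si deplete replicate 1 the brighter one differed by -0.33 and its groups no longer overlapped (limma, adjusted p = 0.193, unadjusted 0.00249). Ptger4, the EP4 receptor, which raises cyclic AMP, lay at 3.02 to 3.50 with the Si deplete diet and at 2.92 to 3.50 with the Si replete diet. Its groups overlapped, with a log2 fold change of 0.13 (standard error 0.16, 95% interval -0.23 to 0.49; limma, adjusted p = 0.739). Levels this close to the lower end of the scale, where 51.3% of all probe sets have a mean under 4, limit what these probe sets can show.

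**Figure D2:**
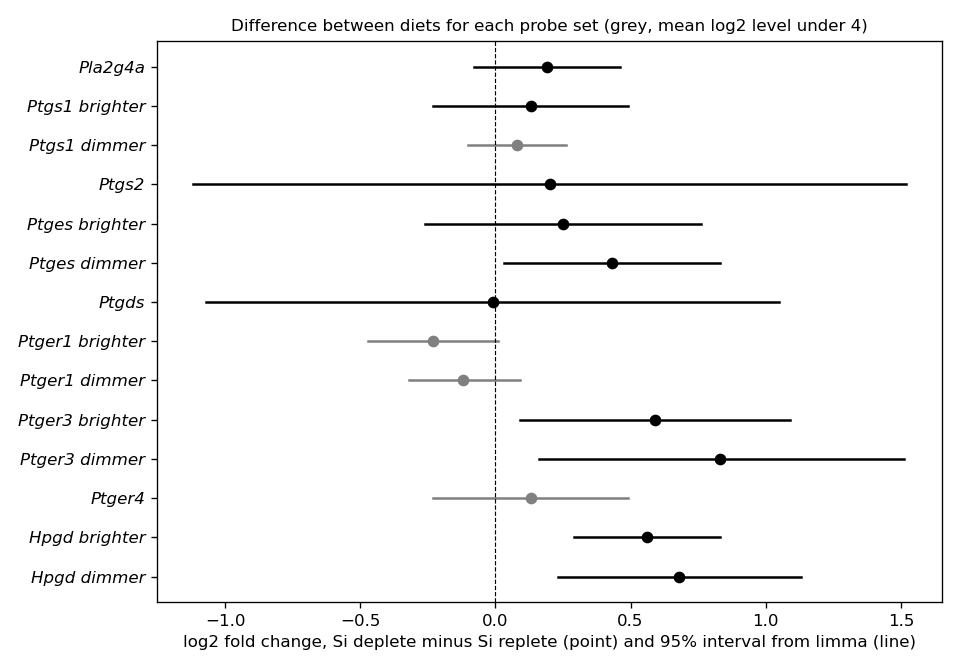
Difference in log2 level between diets (Si deplete less Si replete) for each probe set as a point, with its 95% interval from limma as a line and 4 arrays per diet; probe sets with a mean log2 level under 4 are grey. Intervals of both Hpgd and both Ptger3 probe sets and of the dimmer Ptges probe set lie above 0 before adjustment, and those of Ptgs2 (-1.12 to 1.52) and Ptgds (-1.07 to 1.05) are the widest.

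At the start of the pathway, Pla2g4a differed little. Its level read 8.43, 8.26, 8.45 and 8.74 on the 4 Si deplete arrays (replicates 1 to 4) against 8.38, 8.28, 8.07 and 8.40 on the 4 Si replete arrays. Of the Si deplete kidneys 3 lay above all Si replete kidneys, but the margins were small, and the log2 fold change was 0.19 (standard error 0.12, 95% interval -0.08 to 0.46; limma, adjusted p = 0.492). Ptgs1, the constitutive cyclooxygenase, lay on its brighter probe set at 7.78 to 8.53 with the Si deplete diet and at 7.95 to 8.28 with the Si replete diet, with both the highest and the lowest kidney on the Si deplete diet. Its log2 fold change was 0.13 (standard error 0.16, 95% interval -0.23 to 0.49; limma, adjusted p = 0.736), an interval from 0.852-fold to 1.41-fold. The dimmer Ptgs1 probe set lay at 2.31 to 2.58 over all arrays and differed by 0.08 (standard error 0.08, adjusted p = 0.659).

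Ptgs2 is the cyclooxygenase that cells induce with stress and cytokines. Its level read 4.68, 5.44, 5.86 and 7.55 on the 4 Si deplete arrays (replicates 1 to 4) against 6.75, 5.04, 5.74 and 5.21 on the 4 Si replete arrays. The lowest and the highest kidney were both Si deplete, and 1 kidney of each diet, Si deplete replicate 4 and Si replete replicate 1, stood above the other 6. The log2 fold change was 0.20 (standard error 0.59, 95% interval -1.12 to 1.52; limma, adjusted p = 0.904), an interval from 0.459-fold to 2.87-fold. It was -0.36 without Si deplete replicate 4 and 0.60 without Si deplete replicate 1, so its sign rested on single kidneys. The SD within groups, 1.02, was larger than that of nearly all other probe sets with a mean of 4 or more (percentile 99.6, median SD 0.19). For Ptgs2 and Ptgs1, which catalyse the same step, the diet difference was thus estimated with very different precision. The standard error was 0.59 for Ptgs2 and 0.16 for the brighter Ptgs1 probe set. With 1 array per rat, spread between rats and spread of measurement cannot be told apart.

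Ptgds, the lipocalin-type synthase of prostaglandin D2, varied in the same way. Its level read 6.45, 7.03, 6.00 and 5.53 on the 4 Si deplete arrays (replicates 1 to 4) against 6.45, 6.11, 5.10 and 7.41 on the 4 Si replete arrays. The Si replete group held both the lowest and the highest kidney, and its range covered the whole Si deplete group. The log2 fold change was -0.01 (standard error 0.47, 95% interval -1.07 to 1.05; limma, adjusted p = 0.995), and the SD within groups was 0.81 (percentile 99 among probe sets with a mean of 4 or more). Any doubling or halving is near the edge of this interval.

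Ptges encodes the inducible, microsomal prostaglandin E synthase. On its brighter probe set the level read 9.14, 8.23, 8.06 and 8.52 on the 4 Si deplete arrays (replicates 1 to 4) against 8.19, 8.58, 8.17 and 8.02 on the 4 Si replete arrays. Only Si deplete replicate 1 exceeded the Si replete range, and the log2 fold change of 0.25 (standard error 0.22; limma, adjusted p = 0.638) became 0.03 without it (adjusted p = 0.962). On the dimmer probe set, levels of 6.30, 5.83, 5.69 and 6.18 in Si deplete kidneys stood beside 5.45, 5.80, 5.82 and 5.22 in Si replete kidneys. There 3 Si deplete kidneys lay above all Si replete kidneys, 1 of them barely, and the log2 fold change was 0.43 (standard error 0.18, 95% interval 0.03 to 0.83; limma, adjusted p = 0.308). It was 0.33 without Si deplete replicate 1 (adjusted p = 0.501).

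**Figure D3:**
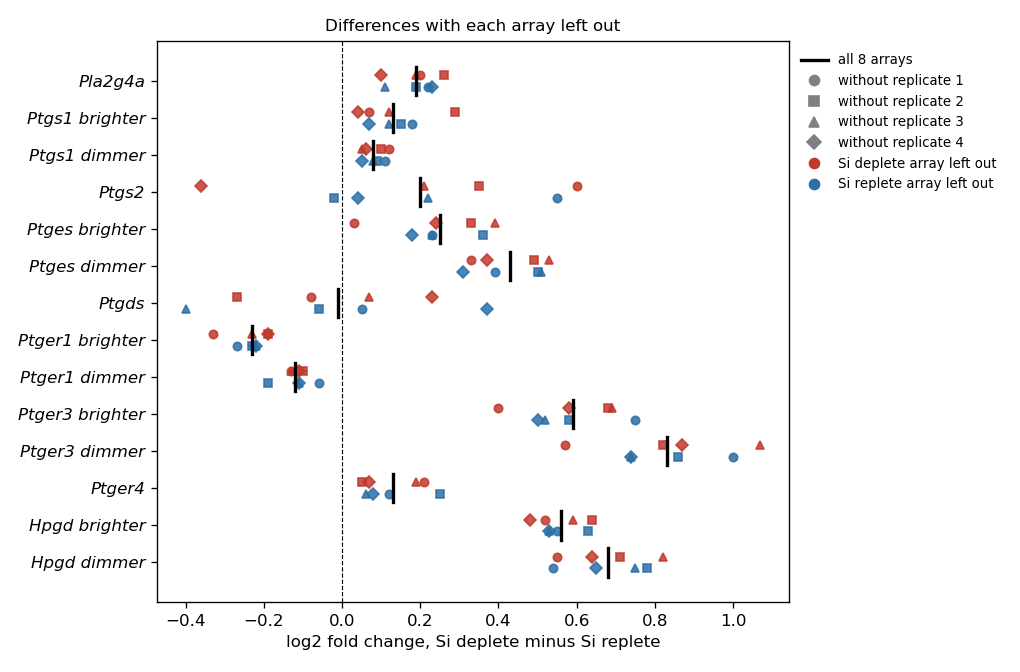
Difference in log2 level between diets (Si deplete less Si replete) for each probe set with all 8 arrays (black line) and with each array left out in turn (symbols, red where a Si deplete and blue where a Si replete array is left out). Values of Hpgd (0.48 to 0.82) and Ptger3 (0.40 to 1.07) stay above 0 throughout, those of Ptgs2 (-0.36 to 0.60) and Ptgds (-0.40 to 0.37) fall on both sides.

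The genes whose pattern over the 8 arrays was most like that of the 3 most variable bright members were named by Pearson's r among 9488 other genes with a mean of 4 or more, as a description. For Ptgs2 they were Plod2 (r = 0.957), a collagen lysyl hydroxylase, Gucy1b1 (r = 0.903), a subunit of the nitric oxide receptor, and Plxdc2 (r = 0.902). Like Ptgs2, all 3 were highest in Si deplete replicate 4, with levels of 8.95, 6.61 and 8.69 there. For Ptgds they were Gosr2 (r = 0.926), Mettl18 (r = 0.92) and Rab34 (r = 0.917), which differed by -0.01, 0.02 and -0.03 between diets. For Ptger3 they were the phosphofructokinase Pfkp (r = 0.984), the deubiquitinase Stambpl1 (r = 0.972) and Cemip (r = 0.969), which acts in hyaluronan breakdown. These last 3 had log2 fold changes of 0.29, 0.67 and 1.09 and did not pass either (limma, adjusted p-values of 0.3, 0.303 and 0.34), and with the diet means removed their r with Ptger3 was 0.971, 0.952 and 0.956.

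The rest of the pathway was read from 41 further symbols in 5 groups, of which 36 were measured. None of the 36 passed in either direction on its brightest probe set (limma, smallest adjusted p = 0.178). At an unadjusted p under 0.05, 3 were higher and 3 lower, where 18.5% of all 14217 genes were past that level. The median difference was 0.017, with 19 above 0 and 17 below, and 21 of the 36 had a mean level under 4. The diets did not overlap for 3 of the 36, which is close to the background. Of all probe sets, 4.67% separated with Si deplete higher and 4.7% with Si deplete lower.

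Among the other synthases, Tbxas1, which makes thromboxane A2, was dim. Its Si deplete mean was 3.52 ± 0.17 (SD, n = 4) and its Si replete mean 2.98 ± 0.25 (SD, n = 4). The groups did not overlap, and the log2 fold change was 0.54 (standard error 0.14; limma, adjusted p = 0.178). Hpgds, the haematopoietic synthase of prostaglandin D2, was near the floor and differed by -0.24 (standard error 0.13, adjusted p = 0.399). The constitutive E synthases Ptges2 and Ptges3 differed by -0.02 and -0.03, with narrow 95% intervals of -0.20 to 0.16 and -0.20 to 0.13. Of the other receptors all 4 measured were under 4, and Tbxa2r, the thromboxane receptor, and Ptgfr, the F2α receptor, differed by 0.14 and -0.14 (limma, adjusted p-values of 0.546 and 0.398).

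Export and the second step of breakdown differed in opposite directions, and neither passed. Abcc4, a pump that can export prostaglandins, differed by 0.31 (standard error 0.12; limma, adjusted p = 0.282). Ptgr1, a reductase that acts after Hpgd on the oxidized prostaglandins, had a Si deplete mean of 9.63 ± 0.15 (SD, n = 4) and a Si replete mean of 9.91 ± 0.05 (SD, n = 4). The groups did not overlap, and they differed by -0.28 (standard error 0.09; limma, adjusted p = 0.227). The import carrier Slco2a1 differed by -0.17 (standard error 0.26, adjusted p = 0.793), with Si deplete replicate 1 the lowest of all arrays at 7.18. Its dim second probe set differed by 0.02 (standard error 0.24). Among phospholipases, all 3 probe sets of the calcium-independent Pla2g6 had lower mean levels in Si deplete kidneys, at -0.50, -0.54 and -0.60 (limma, adjusted p-values of 0.281, 0.394 and 0.331). On each of them Si deplete replicate 1 was the lowest of all arrays, at 8.60, 7.93 and 7.30, so these differences rest in part on that kidney. The dim Pla2g2d had a difference of 0.34 (standard error 0.11, limma adjusted p = 0.23). In the lipoxygenase arm, which turns arachidonic acid into leukotrienes and hydroxy acids, 8 of 9 genes were under 4. Alox15 differed by -1.09 (standard error 0.43; limma, adjusted p = 0.29) at levels of 2.28 to 3.57 against 3.12 to 5.07, and Alox12 by 0.10 (standard error 0.08, adjusted p = 0.583).

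**Figure D4:**
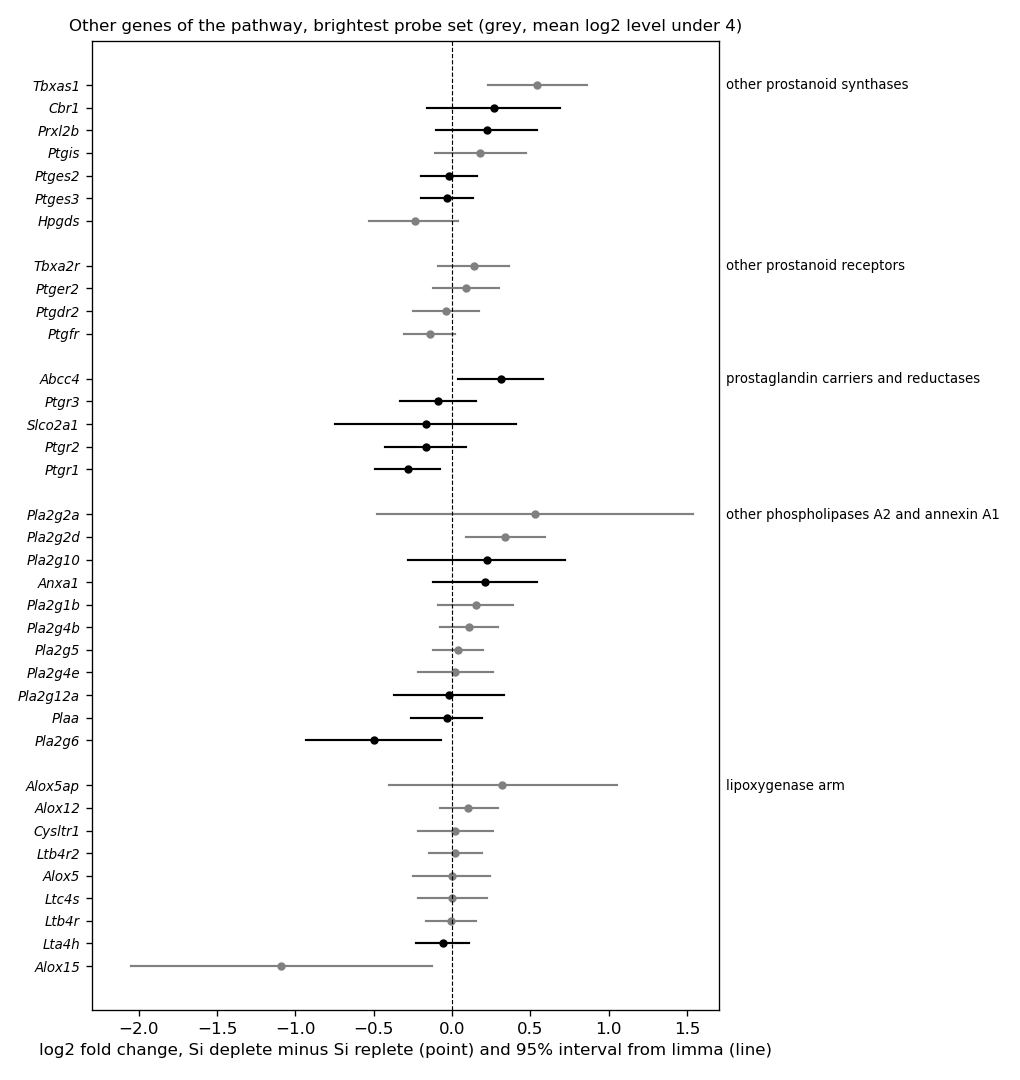
Difference in log2 level between diets (Si deplete less Si replete) for 36 other genes of prostanoid and lipoxygenase metabolism on the brightest probe set of each (points), with 95% intervals from limma (lines) and 4 arrays per diet; genes with a mean log2 level under 4 are grey. Most intervals cover 0, and Alox15 has the largest difference, -1.09.

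Markers of cells that make or take up prostaglandins were read beside these values. Of 6 collecting duct markers 1 was above 0 and 5 below, with mean levels over the list of 9.38 to 9.90 on Si deplete and 9.56 to 9.85 on Si replete arrays. The 5 markers of thick ascending limb and macula densa had a median difference of 0.01 and mean levels of 9.27 to 9.60 and 9.35 to 9.60. Their macula densa marker Nos1 was near the floor. Mast cell markers, all 5 under 4, lay at 2.09 to 2.17 and 2.05 to 2.17, and all 4 platelet markers measured were below 0, with a median of -0.23. Macrophage markers were higher in 7 of 8 genes, with mean levels of 6.66 to 7.33 and 6.13 to 7.04 and a median difference of 0.58. Of 5 fibroblast markers 4 were above 0, with mean levels of 7.69 to 9.0 on Si deplete and 7.3 to 8.0 on Si replete arrays. Among them the collagens Col1a1 and Col3a1 differed by 1.80 and 1.48 (limma, adjusted p-values of 0.166 and 0.189), and the groups did not overlap for Col1a1, whereas Pdgfra and Dcn differed by 0.16 and 0.17. All 4 podocyte markers measured were below 0, with a median of -0.38 and mean levels of 8.09 to 8.85 and 8.69 to 9.17. Lists for the proximal tubule, distal convoluted tubule, inner medulla, endothelium and smooth muscle had medians of -0.14 to 0.22. No marker of any of these cell types passed (limma, smallest adjusted p = 0.166).

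Genes of tubule injury also had higher levels in Si deplete kidneys. All 7 of that list separated the diets with Si deplete higher, where 4.67% of all probe sets did. The list was chosen with earlier results of these data known, so its separation is a description and no independent test. The mean level of the list read 11.34, 10.20, 9.82 and 10.76 on the 4 Si deplete arrays (replicates 1 to 4) against 9.38, 8.32, 8.35 and 8.99 on the 4 Si replete arrays. This difference of 1.77 was 1.5 without Si deplete replicate 1. None of the 7 passed on its brightest probe set (limma, smallest adjusted p = 0.12). The second probe set of Cd44, a hyaluronan receptor, did pass, with a log2 fold change of 1.82 (standard error 0.27; limma, adjusted p = 0.0864), beside 1.17 (standard error 0.21, adjusted p = 0.125) on the one of barely higher mean level (4.98 against 4.91). Both Ptger3 probe sets were highest in the same kidney of each diet as this list, replicate 1 in either case. Hpgd shared that order only in part. Among Si deplete kidneys its dimmer probe set was also highest in replicate 1, whereas the brighter one was highest in replicate 4. In Si replete kidneys both of its probe sets were highest in replicate 2, and the dimmer one was lowest in replicate 1. The part of injury genes, of macrophages, of fibroblasts, of podocytes and of Si deplete replicate 1 in the differences of Hpgd and Ptger3 was not tested.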

How the data were processed

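RNA of whole left kidneys was measured on Affymetrix rat arrays, 1 per rat, in 4 Si deplete and 4 Si replete animals. The deposited values are log2 levels that the authors made by gcRMA with summarization by m-estimators (GCRMA 2.36.0 in the submitters' processing notes); probe intensities were not analysed here. Of 31099 probe sets, 57 controls were left out. Symbols are those of the platform annotation, and all 14 member probe sets matched RefSeq genes by Entrez ID.

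Groups were compared across all genes with limma 3.58.1 in R 4.3.3 (lmFit and eBayes, no covariate), and p-values were adjusted by Benjamini-Hochberg over 31042 probe sets with a cutoff of 0.1, after the modified T-statistics and false discovery rate of the paper's methods. The fit was tested on simulated data. Single probe sets were also compared by an exact permutation test over 70 arrangements. Array number limits the precision.

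Members, lists and tests were chosen with earlier results of these data known. Named beside the 9 genes were the gene of smallest p in each direction of every other pathway list, genes whose arrays correlated best with the 3 most variable members (mean of 4 or more), genes past the threshold, and up to 2 genes of smallest p in a marker list. The probe sets of Ptges2, Ptges3, Slco2a1, Nos1, Pdgfra, Dcn, Umod, Lrp2 and Aqp2 were named after their values were seen. Other settings were a variance prior with an intensity trend or made robust, weighted arrays, a mean level of 4 or more, median-centred or quantile-normalized arrays, the replicate number as a block, the omission of each array, a cutoff of 0.05 and Storey's q-value (lambda 0.5). By the methods, each harvest day took 1 rat of every group; the labels do not tie these arrays to days, so day was not a term in any fit.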

Additional observations from a re-analysis of the deposited data

Results flagged for a closer look

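On the brighter Ptger1 probe set, Si replete replicate 1 lay apart from its group, at 3.22 against 3.34 to 3.36 in the other 3 Si replete kidneys. Its gap was 0.87 of the range of the group, above the 95% critical value of Dixon's test for 4 samples. This was the only one of 28 groups of 4 arrays that did so, and chance alone gives about 1 in 20 such groups. The probe set is dim, and without this array its log2 fold change went from -0.23 to -0.27.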

How the results depend on the processing

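In every setting tried, 0 of the 14 probe sets and 0 of the 36 other pathway genes passed (limma; 5 and 6 at an unadjusted p under 0.05 with all arrays). For some fits this count cannot be informative. Among all 31042 probe sets, 0 passed once replicate 2 of the Si deplete diet was omitted. The same held on omitting replicate 1, 2 or 3 of the Si replete diet. Omitting a replicate 4 left only 4 (Si deplete) or 14 (Si replete) passing. Omitting replicate 1 or 3 of the Si deplete diet left 43 and 302, with no member among them. Of 234 values of single probe sets over 17 settings, 228 kept their direction and none crossed the threshold. The 6 that changed sign were all of Ptgs2 and Ptgds. Many of the 228 could not change. The variance priors, the level filter, the replicate block, Storey's q-value and the cutoff of 0.05 leave the log2 fold change as it is. The cutoff of 0.05 also cannot pass a value that missed 0.1. Only array weights, renormalized arrays and omitted arrays could alter a direction. Ptgs2 was -0.36 (Si deplete replicate 4 left out) and -0.02 (Si replete replicate 2 left out), within a range of -0.36 to 0.60 over all arrays left out. Ptgds was 0.07 and 0.23 without Si deplete replicates 3 and 4 and 0.05 and 0.37 without Si replete replicates 1 and 4. Its range was -0.40 to 0.37. The number of probe sets without overlap between diets, 1 of 14, was between 1 and 4 when 1 array was omitted. It was 4 without Si deplete replicate 3, 3 without Si replete replicate 1 or 2 and 2 without Si deplete replicate 1 or 2, where fewer arrays make separation easier. The median difference of the members was 0.193 and became 0.339 when the 4 probe sets with a mean under 4 were left out. That filter removes both Ptger1 probe sets, which were below 0 (-0.23 and -0.12), and the dimmer Ptgs1 (0.08) and Ptger4 (0.13) probe sets. It was 0.135 with array medians subtracted and 0.163 to 0.313 with single arrays left out. With the replicate block the median stayed at 0.193, since blocks of 1 array per diet cannot change a log2 fold change. The adjusted limma p with this block was 0.188 for the brighter Hpgd and 0.116 for the dimmer Ptger3 probe set. The unadjusted limma p of Ptger3 fell from 0.0266 to 0.00163 on the brighter and from 0.0206 to 0.0007 on the dimmer probe set. That of Hpgd rose from 0.00113 to 0.00605 and from 0.00779 to 0.0264. Of all 31042 probe sets, 104 passed with the block and 47 without it. Deviations of arrays with the same number had correlations of 0.088, 0.09, 0.079 and -0.088. Of the 8 arrays, 4 correlated best with the array of the other diet that shared their number. These values do not settle whether the numbers pair the rats, and the labels do not say so. The main fit therefore took the rats as unpaired.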
